A study of Arabidopsis thaliana with 4 samples.

Results

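The insertion of mitochondrial DNA in chromosome 2 was described from the cytosines listed as methylated between 3.24 and 3.51 Mb (TAIR10 coordinates), and was compared with 200 kb of chromosome 2 on either side. The interval was set by position, with earlier results of these data known. It held 10638, 10186, 9804 and 8964 listed sites in mock 1, mock 2, SNP 1 and SNP 2, the order kept throughout. The whole nuclear lists held 3970449, 4134559, 4106388 and 3857352 sites, respectively. In 5-kb windows the interval spans 54 of the 23832 windows of the 5 nuclear chromosomes, and its flanks span 80.

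The data came from enzymatic methyl-seq (EM-seq), in which enzymes convert unmethylated cytosines so that they are read as T, while methylated cytosines are still read as C. DNA of Arabidopsis thaliana shoot apices was sequenced after 24 h of treatment in 2 mock libraries, which received 0.025% of the wetting agent Silwet, and in 2 SNP libraries, which received the same Silwet with 1 mM SNP, that is sodium nitroprusside, which releases nitric oxide. The labels give the genotype of all 4 samples as Col-0, whereas the methods of the study name ap1/cal, a double mutant whose apices proliferate as meristems. The methods speak of biological replicates without saying how the plants were divided between them, so the spread given here is that between libraries.

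Chromosome 2 of the Col-0 accession carries a copy of almost the whole mitochondrial genome next to its centromere. The insertion is known from work on its DNA to be longer than its assembled sequence and to hold repeated segments. Plant nuclear DNA is methylated in the CG, CHG and CHH contexts, where H is A, C or T. CG methylation is copied at replication by MET1, CHG methylation is maintained by CMT3, and CHH methylation is set by CMT2 and by RNA-directed DNA methylation. Silent DNA around the centromere carries all 3 kinds, whereas DNA inside mitochondria is largely unmethylated. A short read from the insertion and a read from a mitochondrion can be the same, and after conversion even a base difference between them can vanish.

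The label was set against the reference sequence. The mitochondrial genome of the RefSeq assembly TAIR10.1 aligned from chr2:3239038 to chr2:3509765 at identities between 99.56% and 99.97% per aligned block, and 99.5% of the interval was covered. The boundaries at which this homology begins and ends are shown first, because reads across them can come only from the nucleus. Capitals mark the mitochondrial side, and both sequences are the plus strand of RefSeq TAIR10.1, chr2:3238978-3239097 and chr2:3509706-3509825.
left junction: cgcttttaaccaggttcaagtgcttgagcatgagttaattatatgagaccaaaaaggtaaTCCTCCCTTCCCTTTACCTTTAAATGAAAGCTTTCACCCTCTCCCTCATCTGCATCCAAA
right junction: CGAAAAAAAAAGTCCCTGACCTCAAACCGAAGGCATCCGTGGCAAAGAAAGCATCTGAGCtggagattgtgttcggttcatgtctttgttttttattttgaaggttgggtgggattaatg
All 20 CG cytosines in the 500 bases before the left junction were listed in every library, at levels of 93.2% and 97.2% in mock and 94.8% and 99.4% in SNP. Levels are methylated reads as a percentage of the reads summed over the listed sites. Inside the left junction, 10, 10, 9 and 10 of 24 CG cytosines were listed in mock 1, mock 2, SNP 1 and SNP 2, at levels of 96.4%, 100%, 97.1% and 95.8%. Inside the right junction, 11, 11, 12 and 10 of 34 were listed, at levels of 28.3%, 31.0%, 22.3% and 20.1%. Beyond the right junction the level returned to between 92.9% and 97.5%, with 24, 24, 24 and 23 of 24 listed. The first bases of the insertion were therefore as highly methylated as the neighbouring DNA at the sites listed, whereas its last bases were read at a low level.

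The 2 genomes differed at 211 aligned positions, of which 184 were base differences and 27 were gaps. Among the 184 base differences, 101 (54.9%) had T on chromosome 2 where the mitochondrial genome has C, read on either strand, 15 had the reverse, and 68 were of other kinds. At the 101 positions the mitochondrial C stood in a CG context at 35, in CHG at 43 and in CHH at 23. Set against the cytosines of each context in the mitochondrial genome, these are 1.75 per 1000 CG, 2.18 per 1000 CHG and 0.287 per 1000 CHH cytosines. The differences were thus more frequent at the contexts that were highly methylated in the flanks, and no test was made. On each strand, 153 of the 211 differences can still be read after conversion and 58 are hidden, because a T on that strand cannot be told from a converted C.

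The reading at a single difference is shown by a pair of stretches, chr2:3446601-3446681 on the plus strand and the mitochondrial genome at Mt:187040-187120 on the minus strand. The capital marks the only base that differs, written G41A with the mitochondrial base first and counted from the 5′ end. This pair was chosen after its values were seen.
chromosome 2: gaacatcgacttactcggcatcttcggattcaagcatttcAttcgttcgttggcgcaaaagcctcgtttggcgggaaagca
mitochondrion: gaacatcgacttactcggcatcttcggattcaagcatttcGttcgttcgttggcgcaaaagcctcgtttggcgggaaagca
The values are for the CG cytosines within 75 bases on either side of the difference, a span wider than the stretch shown. On the plus strand, where this difference can be read, 13, 13, 8 and 13 of 13 were listed in mock 1, mock 2, SNP 1 and SNP 2, at levels of 98.7%, 85.6%, 100% and 98.99%. Their median depth was 6, 7, 3 and 7 reads. On the minus strand, where conversion makes the stretches alike, 0 of 13 were listed in any library. CG methylation is normally alike on both strands, whereas here the lists held the sites of a single strand.

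Across the whole interval, listed sites were sparse, deep and low in level. In CG, 24.6%, 23.2%, 23.0% and 20.8% of the 20036 cytosines were listed in mock 1, mock 2, SNP 1 and SNP 2, whereas the flanks had between 88.9% and 89.8% of 17776. In CHG the shares were 20.1%, 19.1%, 18.4% and 17.03% of 19713, against between 73.6% and 75.3% in the flanks. In CHH they were 2.16%, 2.19%, 1.95% and 1.77% of 80712, against between 11.8% and 13.6%. The share was lower in the insertion in 4 of 4 libraries for each context, by 66.4 ± 1.35 points in CG, 56.0 ± 0.86 in CHG and 10.8 ± 0.80 in CHH (SD, n = 4, exact sign-flip test, two-sided p = 0.125 for each, the smallest that 4 libraries allow). A listed site is one that was called methylated by the authors, so a cytosine that is not listed may have been uncovered or covered and not called.

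The listed sites of the insertion were covered more deeply than those of the flanks. Their median CG depth was 23, 22, 28 and 28 reads in mock 1, mock 2, SNP 1 and SNP 2, against 9, 8, 8 and 8 reads in the flanks. This is a log2 ratio of 1.61 ± 0.24 (SD, n = 4), or 3.05-fold (exact sign-flip test, p = 0.125). In CHG the median depth was 23, 23, 26 and 26 reads against 10, 9, 9 and 8, and in CHH it was 35, 36, 34 and 27.5 reads against 12, 12, 11 and 10. The log2 ratios were 1.45 ± 0.22 in CHG and 1.55 ± 0.07 in CHH (SD, n = 4, exact sign-flip test, p = 0.125 for each). With the mean in place of the median the CHH ratio was −0.022. A stretch of the right flank, chr2:3600001-3630000, held CHH sites with a median depth of 141, 114, 123 and 118 reads.

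The methylation level of the listed sites was low. Over all listed CG sites it was 21.6%, 20.1%, 15.9% and 16.8%. By contrast, in the left flank it was between 93.2% and 93.9%, and in the right flank between 83.3% and 84.8%. All insertion values lay below all flank values. In CHG the level was 18.2%, 17.2%, 14.4% and 15.2%, against between 67.9% and 71.0% in the left flank and between 59.7% and 60.7% in the right flank. In CHH it was 10.3%, 9.56%, 8.97% and 10.05%, against between 27.6% and 33.1% in the left flank and between 10.4% and 11.7% in the right flank, which holds the very deep stretch.

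Where all 4 libraries had at least 10 reads, and so a call, 1825 CG sites of the insertion stood at 20.5%, 19.0%, 14.3% and 15.1%, and 1341 CG sites of the flanks at 78.9%, 79.5%, 78.4% and 78.3%. The difference was −61.6 ± 2.6 points (SD, n = 4, exact sign-flip test, p = 0.125), lower in 4 of 4 libraries. With the very deep stretch of the right flank left out, the CG difference was −74.4 points. In CHG the difference was −33.4 ± 2.5 points, and −55.3 points with that stretch left out. In CHH it was −0.89 ± 1.095 points, with p = 0.25 in the exact sign-flip test, and the values of the insertion, 9.85%, 9.65%, 8.38% and 9.41%, overlapped those of the flanks, 9.32%, 11.1%, 10.4% and 10.1%. With the very deep stretch of the right flank left out, the CHH difference was −23.5 ± 2.17 points (exact sign-flip test, p = 0.125), so this stretch decided that value. The right flank holds it, and the left flank alone gave −23.9 points and the right flank alone −0.75 (exact sign-flip test, p = 0.375).

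The low level went together with many unmethylated reads, while the number of methylated reads per listed site was close to that of the left flank. A listed CG site of the insertion had on average 8.38, 7.49, 7.67 and 7.30 methylated reads in mock 1, mock 2, SNP 1 and SNP 2, against 9.31, 8.26, 8.13 and 7.52 in the left flank. It had 30.5, 29.8, 40.5 and 36.3 unmethylated reads, against 0.654, 0.598, 0.531 and 0.497. Divided by all CG cytosines, listed or not, the methylated reads at listed sites were 0.176-fold those of the flanks (log2 ratio −2.51 ± 0.05, SD, n = 4, exact sign-flip test, p = 0.125). The ratio was 0.238-fold in CHG and 0.115-fold in CHH.

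**Figure D1:**
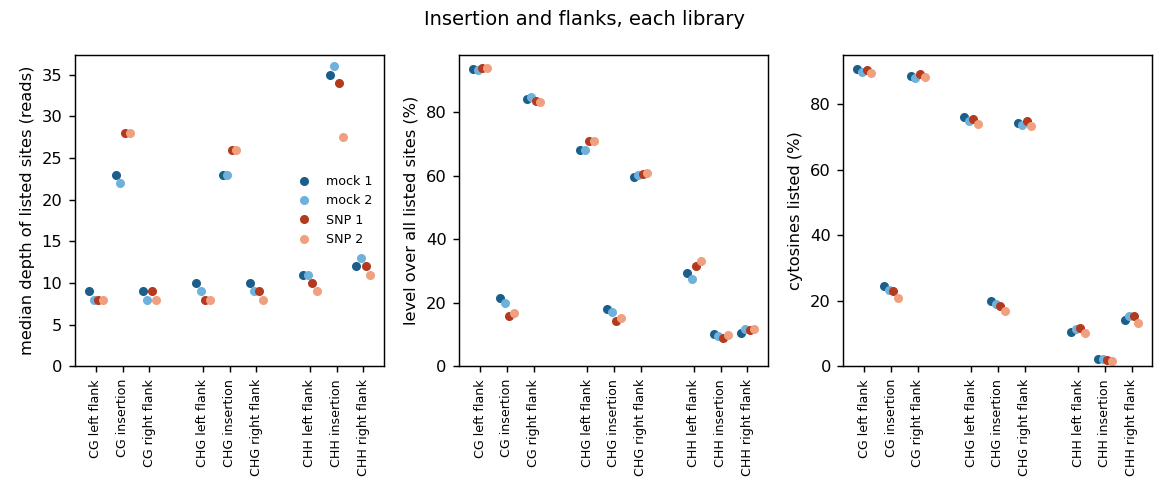
Median depth of listed sites in reads, level over all listed sites in % and cytosines listed in %, for the insertion and each flank and for each context, with a point per library. In CG, the 4 insertion points of listed share lie between 20.8% and 24.6%, below every flank point.

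To set the level beside the dilution that added unmethylated reads would give, the ratio of flank to insertion depth was compared with the ratio of insertion to flank level. Both would be equal if the insertion had the depth and level of its flanks and every further read were unmethylated. In CG the depth ratio was 0.391, 0.364, 0.286 and 0.286 in mock 1, mock 2, SNP 1 and SNP 2, and the level ratio was 0.260, 0.238, 0.182 and 0.192. In CHG the depth ratio was 0.435, 0.391, 0.346 and 0.308, and the level ratio was 0.371, 0.338, 0.271 and 0.283. In CG and CHG both SNP libraries had the lower ratio of either kind. The level ratio was below the depth ratio in every library for these contexts, but the 2 ratios rest on unlike site sets. In CHH the order was the other way, with depth ratios of 0.343, 0.333, 0.324 and 0.364 and level ratios of 1.06, 0.871, 0.807 and 0.934. The flank level in the ratios of each context includes the very deep stretch of the right flank. Against the left flank alone, over all listed sites, the level ratio was 0.231, 0.215, 0.170 and 0.179 in CG. In CHG it was 0.268, 0.253, 0.203 and 0.214, and in CHH 0.351, 0.346, 0.283 and 0.304. The CHH values lay above the depth ratio in mock and below it in SNP. Only listed sites enter both ratios. The depth ratio used all of them, and the level ratio used those of at least 10 reads in every library. Over all listed sites the mean log2 ratio of insertion to flank depth was 1.61 in CG and 1.45 in CHG. At sites listed in every library it was 2.35 and 2.41. The order of the 2 ratios was therefore not compared at like sites. The share of reads that came from mitochondria was not measured.

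The lists also hold sites on the mitochondrial chromosome itself. There, 7568, 7354, 6745 and 6140 CG sites were listed, with a median depth of 91, 89, 127 and 108 reads and a level of 10.3%, 9.43%, 7.44% and 8.03%. The median listed CG site had 8, 7, 8 and 8 methylated reads, which is close to the mean count per listed site of the insertion. Of the mitochondrial positions in mock 1, 22.3% fell on a cytosine of the RefSeq mitochondrial genome and 5.49% on a cytosine of the same context, whereas all positions of chromosome 2 did. The authors' mitochondrial sequence was thus another version than the reference used here. The differences counted above are differences from the RefSeq version and may not all be differences from the sequence to which the reads were aligned.

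The number of methylated reads needed for a site to be listed grew with its depth, which bears on a comparison of listed shares. The smallest number among all listed nuclear sites was 2 at a depth of 10 reads, 3 near 20 reads, 3 or 4 near 50 reads, 4 or 5 near 100 reads and 6 or 7 near 200 reads, depending on the library. A site with a few methylated reads could therefore be listed at the depth of the flanks and be left out at the depth of the mitochondrial genome.

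Along the insertion, 53 of the 54 windows held listed sites, and the level varied between them. In 50 windows the CG level was below 50% in all 4 libraries, and in 49 it was below that of every flank window in every library, the lowest of which was 47.4%. The median window had a CG level of 24.2%, 22.4%, 18.1% and 18.5% in mock 1, mock 2, SNP 1 and SNP 2, and the windows ranged from 6.11% to 100%. In CHG the median window stood at 19.6%, 18.6%, 15.5% and 16.8%, and in CHH at 10.5%, 10.2%, 9.92% and 10.4%. Most windows were thus low in CG and CHG, with a few exceptions.

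The 5 windows of greatest CG depth were those starting at 3485001, 3380001, 3335001, 3375001 and 3310001. At chr2:3485001-3490000 the median depth was 66, 66, 101 and 95.5 reads, and the CG level was 11.5%, 9.98%, 7.61% and 8.19%. At chr2:3335001-3340000 the depth was 65.5, 62, 76 and 71 reads and the level was 23.3%, 22.9%, 16.2% and 16.3%. At chr2:3310001-3315000 the depth was 62, 57, 77.5 and 62 reads and the level was 24.2%, 23.3%, 18.0% and 18.5%. In each of the 3, both SNP libraries had a lower level than both mock libraries.

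The 5 windows of least CG depth started at 3285001, 3250001, 3420001, 3445001 and 3245001. At chr2:3285001-3290000 the median depth was 4, 3, 4 and 3 reads, and the CG level was 84.5%, 89.8%, 97.2% and 100%. At chr2:3420001-3425000 the depth was 5, 3, 5 and 4 reads and the level was 65.4%, 80.4%, 47.7% and 39.8%, so that the SNP values lay below the mock values. The other 3 had levels between 17.8% and 49.4%, so that shallow windows were not uniformly high.

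At the ends, the first window, chr2:3240001-3245000, had a median depth of 8, 7, 7 and 6 reads with a CG level of 28.0%, 40.3%, 26.0% and 31.9%. The last window, which starts at chr2:3505001, had 8, 9, 10 and 8 reads with 39.6%, 46.3%, 35.3% and 34.3%. The window chr2:3370001-3375000, named after its values were seen, held no listed site in any library. There, 98.2% of the 75-base words, read as converted sequence, had a second copy in the nuclear genome, and 0 differences from the mitochondrial genome were found. Across the interval such a nuclear copy was found for 13.0% of the words, and 95.5% had a copy in an organelle genome.

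**Figure D2:**
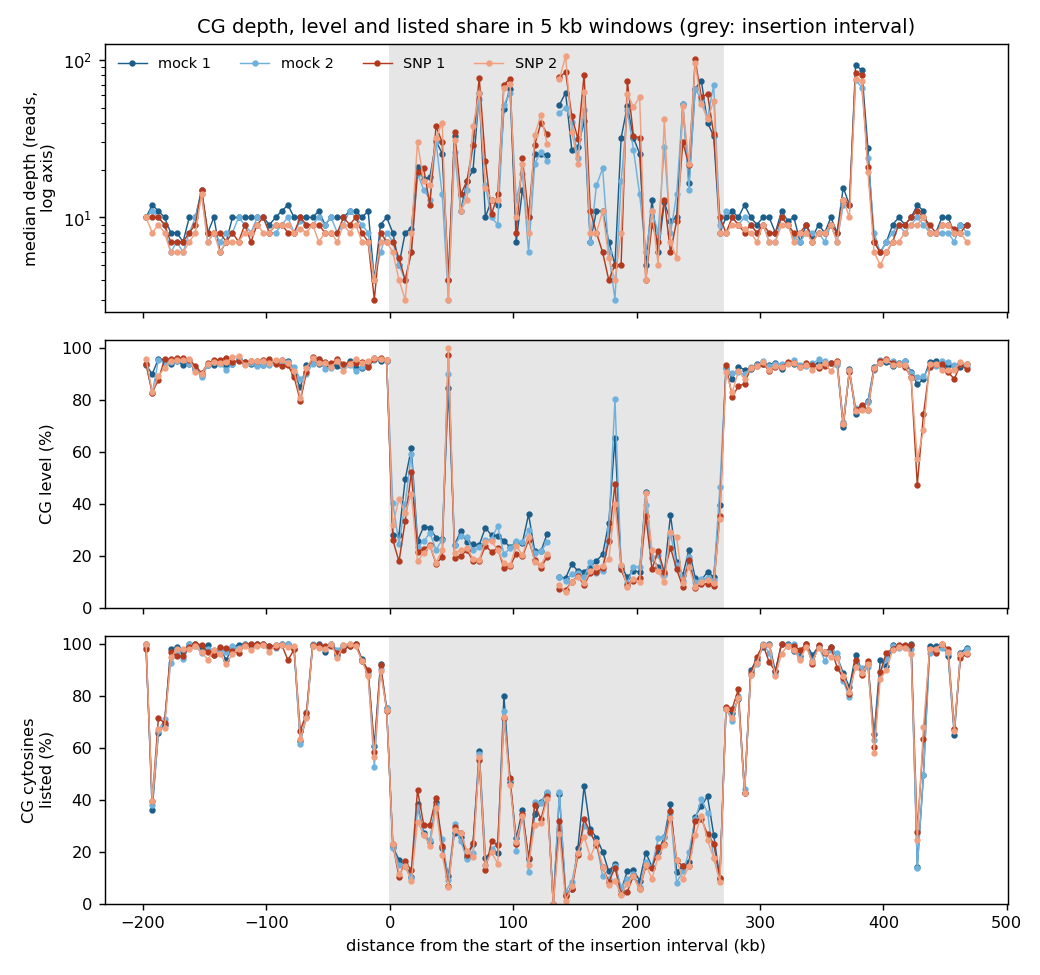
CG depth in reads, CG level in % and share of CG cytosines listed in 5-kb windows along the insertion and both flanks, with a line per library and the distance from the start of the interval in kb on the horizontal axis. The level falls from 79.6% or more in the left flank to below 50% in 50 of the 54 insertion windows, and is lower again beyond the window with no listed site.

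Deep windows of low level were rare elsewhere. Of the 19227, 19520, 19428 and 19181 nuclear windows with at least 10 listed CG sites, 42, 38, 41 and 39 had a median depth above 20 reads, and 24, 23, 26 and 26 of these lay in the insertion. Windows that were both above 20 reads and below 50% numbered 28, 27, 30 and 30, of which 24, 23, 26 and 26 were in the insertion. These windows were counted by both measures at once, with no test.

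The level fell in a step at the window with no listed sites. Left and right parts of the insertion were therefore set side by side, a split chosen after the values were seen. Among CG sites of at least 30 reads, the left part had a median depth of 74, 70, 83 and 76 reads in mock 1, mock 2, SNP 1 and SNP 2, and the right part had 74, 72, 99 and 88. The median number of methylated reads was 16, 14, 12 and 12 in the left part and 7, 6, 7 and 6 in the right part. The level was 22.9%, 21.1%, 16.1% and 16.9% in the left part and 10.3%, 9.33%, 7.42% and 7.84% in the right part. The parts thus differed in methylated reads and far less in depth, and the ranges of level did not overlap. Near differences that can be read after conversion, the median site level was 100% in both parts.

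**Figure D3:**
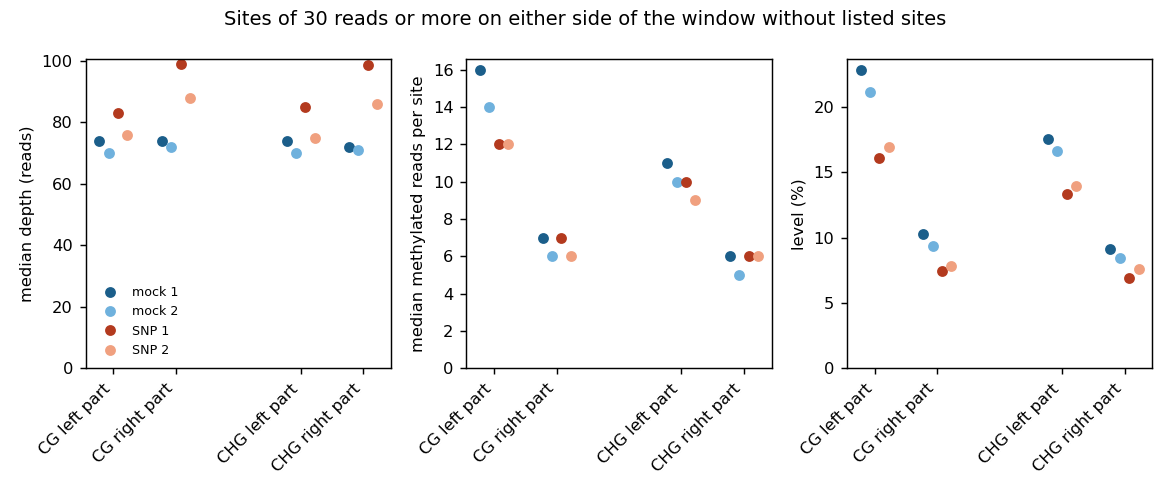
Median depth in reads, median methylated reads per site and level in % for CG and CHG sites of at least 30 reads to the left and right of the window without listed sites, with a point per library. In CG, the methylated reads lie between 12 and 16 on the left and between 6 and 7 on the right, with all left points above all right points.

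Sites were then ordered by their distance from the nearest difference that can be read on their own strand. Within 75 bases, the length of a read, 79.8%, 75.97%, 76.6% and 71.6% of the 1569 CG cytosines were listed in mock 1, mock 2, SNP 1 and SNP 2. Their median depth was 7, 7, 7 and 6 reads, and the median site level was 100% in every library. Beyond 250 bases, 18.2%, 16.99%, 16.0% and 14.8% of 15316 CG cytosines were listed, with a median depth of 49, 45, 62 and 58 reads and a median site level of 20%, 19.0%, 15.7% and 16.1%. Between 76 and 250 bases the listed share was between 25.1% and 30.6% of 3053. Summed over reads, the CG level within 75 bases was 46.5%, 42.4%, 36.6% and 37.3%, well below the flanks, since some sites there were deep. Near a readable difference most sites thus had a depth and a site level like those of the flanks, and far from one most were deep and low. An exception was the aligned block chr2:3247243-3250670, where 18, 18, 5 and 11 listed CG sites lay beyond 250 bases. Their median depth was 3, 2, 4 and 3 reads, and their level was 100%, 93.2%, 95.2% and 95.3%. The distance classes and strand classes were chosen after the lists had been looked at, and they were not tested.

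Differences hidden by conversion served as a comparison at like distance. Within 75 bases of a hidden difference and further than 75 bases from a readable one, 14.6%, 13.6%, 15.4% and 12.3% of 642 CG cytosines were listed. Their median depth was 39.5, 45, 43 and 51 reads, and the median site level was 22.1%, 20%, 17.1% and 16.7%. These values lay near those of sites with no readable difference within 250 bases. High levels were thus found near differences that can be read on the strand and not near those that are hidden.

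The other contexts followed the same order. In CHG, between 59.2% and 66.9% of 1535 cytosines within 75 bases of a readable difference were listed, with median site levels between 66.7% and 72.7%. Near a hidden difference the listed share was between 9.39% and 11.7%. In CHH, 8.35%, 8.53%, 8.41% and 8.70% were listed within 75 bases of a readable difference, against 1.59%, 1.65%, 1.34% and 1.17% beyond 250 bases. The listed shares near readable differences were nearer to those of the flanks than the shares far from them in each context.

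**Figure D4:**
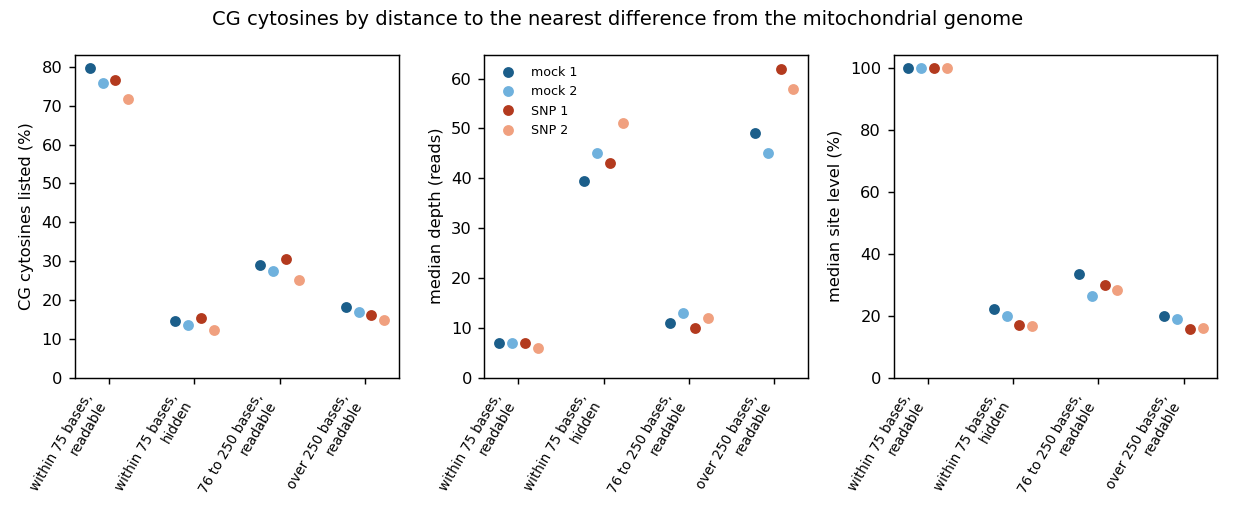
CG cytosines listed in %, median depth in reads and median site level in %, by distance in bases from the nearest difference from the mitochondrial genome, readable or hidden after conversion, with a point per library. Between 71.6% and 79.8% are listed within 75 bases of a readable difference and between 12.3% and 15.4% near a hidden one.

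A stretch of 1105 bases, chr2:3258529-3259633, had no mitochondrial alignment. There, 13, 13, 13 and 10 of 92 CG cytosines were listed, at a level of 94.5%, 96.7%, 70.5% and 69.8%. The last 235 bases of the interval lie beyond the homology, and all 6 CG cytosines there were listed in every library at 90.5%, 83.3%, 94.2% and 100%. Both non-homologous stretches were thus high in level, although few of the CG cytosines of the first were listed.

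The densest run of CG sites listed in every library is shown because it carries many sites in a short span. It lies at chr2:3313134-3313283, on the plus strand of RefSeq TAIR10.1, within the annotated gene AT2G07629 (chr2:3312873-3313502). A capital C marks a listed cytosine of the plus strand, and a capital G marks one on the minus strand opposite.
densest run: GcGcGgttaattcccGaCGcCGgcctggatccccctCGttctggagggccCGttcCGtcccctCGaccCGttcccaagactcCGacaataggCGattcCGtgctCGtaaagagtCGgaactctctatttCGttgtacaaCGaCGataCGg
In this run 36 of 39 CG cytosines were listed in all 4 libraries. The median depth was 60, 58, 72.5 and 62 reads in mock 1, mock 2, SNP 1 and SNP 2, and the level was 22.4%, 23.8%, 14.7% and 18.8%. Both SNP values lay below both mock values, as in the insertion as a whole.

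The comparison of SNP with mock asks whether nitric oxide changes DNA methylation. At CG sites of at least 10 reads throughout, the level of the insertion in SNP minus that in mock was −5.05 points (pooled SD 0.87, 2 libraries per group), and the groups did not overlap. In CHG the difference was −3.75 points (SD 0.60) and in CHH −0.86 points (SD 0.52), again without overlap in either context. Each had p = 0.333 in the exact permutation test, the smallest that 2 against 2 libraries allow, so these differences cannot pass a threshold of 0.05. In the flanks the differences were −0.81 points in CG (SD 0.32), 0.064 in CHG and 0.029 in CHH, and the groups overlapped in CHG and CHH but not in CG. With the very deep stretch of the right flank left out they were −0.29 in CG (p = 0.667), 1.29 in CHG and 2.83 in CHH (SD 0.075, exact permutation test, p = 0.333 for CHG and CHH), so that flank CHH was higher in SNP without overlap and the CG groups overlapped. In CG and CHG the levels of the insertion were therefore lower in SNP, by more than the spread between replicates. In CHH the SNP libraries differed from each other by more than the groups did, and the difference was −0.34 points without SNP 1, −1.37 without SNP 2 and −0.39 with the mean of site levels (exact permutation test, p = 1).

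Depth and methylated reads were compared in the same way. The ratio of insertion to flank depth was higher in SNP by 0.40 on the log2 scale in CG, or 1.32-fold, and by 0.34 in CHG, while in CHH it was −0.021 with overlapping groups (exact permutation test, p = 0.333, 0.333 and 1). The same ratio of methylated reads per cytosine was −0.064 in CG, or 0.956-fold, −0.059 in CHG and −0.072 in CHH, and the groups overlapped in CG and CHH (exact permutation test, p = 0.667, 0.333 and 0.667). The lower level in SNP thus went with more unmethylated reads and nearly equal methylated reads. The depth of the mitochondrial lists, 127 and 108 reads in SNP against 91 and 89 in mock, was also higher in both SNP libraries. Their part in the lower level was not tested. Whether methylation of the insertion differed between treatments or the amount of mitochondrial DNA did cannot be told apart from levels alone.

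At sites listed in every library the difference was split by distance from a readable difference. The 1437 CG sites beyond 250 bases had 13.9, 12.1, 12.1 and 11.1 methylated reads per site in mock 1, mock 2, SNP 1 and SNP 2, and 54.3, 51.1, 73.1 and 61.6 unmethylated reads. Their level was −5.05 points in SNP against mock. The 832 CG sites within 75 bases had mean site levels of 77.7%, 76.1%, 74.2% and 74.8%, a difference of −2.38 points (SD 0.84, exact permutation test, p = 0.333). Weighted by reads, the level of these near sites was 48.7%, 44.7%, 37.8% and 38.0%, since some of them were deep. In CHG the mean site levels near a readable difference were 68.3%, 68.9%, 68.6% and 69.7%, a difference of 0.55 points, with overlapping groups. Weighted by reads they were 44.6%, 42.96%, 37.0% and 38.5%, a difference of −6.04 points without overlap (exact permutation test, p = 0.333).

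**Figure D5:**
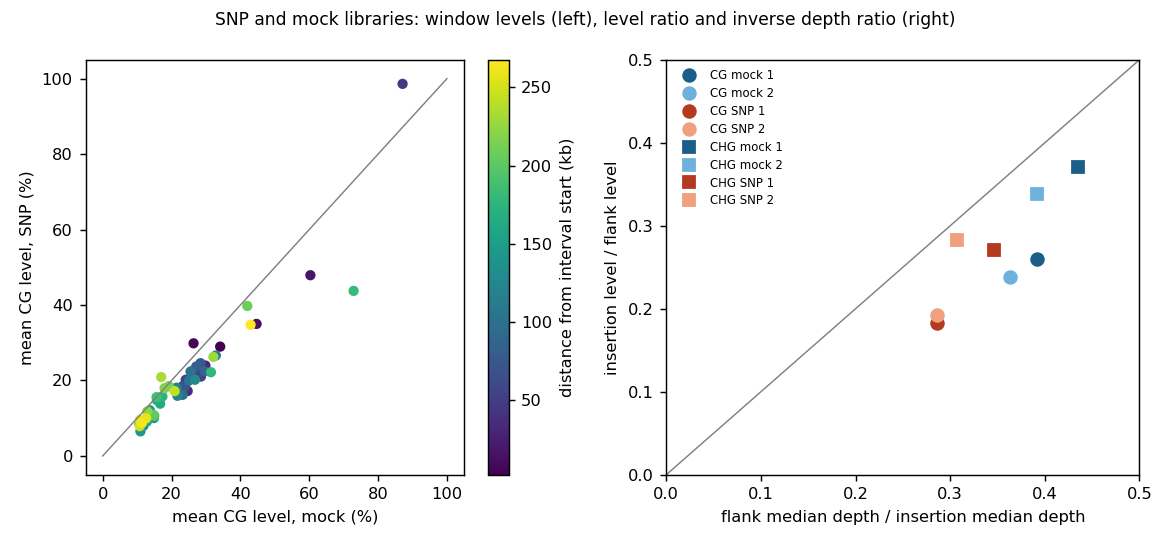
Left, mean CG level in % of the mock against the SNP libraries, with a point per 5-kb window of the insertion coloured by its distance in kb from the start of the interval and a line of equality. Right, level ratio of insertion to flank against depth ratio of flank to insertion, both without unit, with a point per library in CG and CHG. In CG the SNP points lie at 0.286 with level ratios of 0.182 and 0.192, below and to the left of both mock points.

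Among the 53 windows with listed CG sites, the SNP values lay below both mock values in 41 and above both in 1. Windows were then tested across the 5 nuclear chromosomes with edgeR's quasi-likelihood test with Benjamini-Hochberg adjustment, where the effect is the log2 ratio of the odds of methylated to unmethylated reads in SNP and mock. Of 4181 CG windows with at least 10 sites of sufficient depth, 3 were called at an adjusted p under 0.05, which is 0.0718%, and 1 of the 37 insertion windows that could be tested was among them. At an unadjusted p under 0.05 it was 28 of 37, beside 10.9% of all windows. These windows lie side by side in the same 4 libraries, so they are not independent values. Many of them were also far deeper than most nuclear windows, so the share over all windows was not taken at like depth. Both limits hold for the CHG windows and the genes below. The median log2 odds ratio was −0.48 in the insertion windows tested and −0.21 in all windows tested.

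The called CG window was chr2:3335001-3340000, with levels of 23.1%, 22.7%, 16.1% and 16.2% in mock 1, mock 2, SNP 1 and SNP 2 and a log2 odds ratio of −0.62 (SE 0.11, edgeR adjusted p = 0.0168). In CHG, 5 of 1952 windows were called, 0.256%, and all 5 were among the 28 insertion windows tested, of which 22 had an unadjusted p under 0.05 beside 7.89% of all. The median log2 odds ratio was −0.37 in the insertion and 0.051 over all CHG windows. They started at 3275001 (−0.56), 3295001 (−0.55), 3310001 (−0.49), 3335001 (−0.54) and 3360001 (−0.64 on the log2 odds scale, edgeR adjusted p = 0.000758). All of the called windows were lower in SNP and lay in the left part, which also held more of the windows tested. The windows tested in the right part were lower in SNP too. Their log2 odds ratios ranged from −0.66 (3465001) to −0.25 (3485001) in CHG, and from −0.68 (3480001) to −0.25 (3405001) in CG. In CHH, edgeR called 0 of the 8 insertion windows tested, with 0.497% called of 1007, 1 of the 8 at an unadjusted p under 0.05 beside 8.84% of all, 0 called by DESeq2 and 0 by Fisher's exact test of pooled reads.

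These calls did not hold in every fit with 1 library left out, and each such fit left a single library in 1 group. In those fits the log2 odds ratio of the called CG window ranged from −0.64 to −0.61. Those of the called CHG windows ranged from −0.72 to −0.40. The direction of each called window was the same in every fit. DESeq2 called 0 in either context, with 0 of 37 in CG and 1 of 28 in CHG at an unadjusted p under 0.05.

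Genes of the insertion included copies of mitochondrial genes, and their methylation did not always follow that of the surrounding windows. The RefSeq annotation has 185 genes that overlap the interval, many of them pseudogenes. Of these, 41 had at least 10 CG sites of sufficient depth in every library and 54 had no listed CG site in any library. By role they included 10 genes of complex I, which passes electrons from NADH into the respiratory chain, 3 of complex III, 2 of complex IV, the terminal oxidase, 6 of ATP synthase, 6 of cytochrome c maturation, 5 ribosomal proteins and 23 tRNA genes, with 130 of other or unknown role. No CG site was listed in 17 of the 23 tRNA genes, which are short.

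Among complex I genes, 3 had enough sites. AT2G07633 (chr2:3329660-3331324) had a CG level of 23.5%, 24.2%, 18.6% and 17.2% in mock 1, mock 2, SNP 1 and SNP 2 over 16 sites. The pseudogene of NADH dehydrogenase subunit 7, AT2G07709 (chr2:3388547-3394716), had 10.04%, 9.28%, 7.86% and 8.06% over 30 sites, and the pseudogene of NADH dehydrogenase 5B, AT2G07711, had 12.5%, 12.8%, 9.12% and 8.01% over 18. The gene in the left part was thus about as high as its neighbours there, and both pseudogenes in the right part were lower.

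For complex IV, AT2G07695, which resembles subunit II of cytochrome c oxidase, stood at 20.4%, 19.9%, 17.4% and 15.7% over 23 sites. For ATP synthase, AT2G07698, an alpha subunit of the F1 complex, stood at 17.6%, 20.3%, 14.6% and 15.7% over 28 sites. For cytochrome c maturation, ABCI4 (AT2G07681) stood at 20.5%, 22.6%, 17.9% and 17.4% over 23 sites. All 3 lie in the left part, and in each the SNP values were the lower ones.

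Other copies were high in level and shallow. AT2G07777, annotated as subunit 9 of ATP synthase, had 47, 56, 53 and 49 of 172 CG cytosines listed at 92.6%, 95.8%, 92.8% and 96.0%, with a median depth of 7, 4, 4 and 3 reads. The pseudogene of ATP synthase subunit 6, AT2G07699, stood at 93.3%, 96.7%, 97.9% and 97.1%. Of the cytochrome c maturation genes, AT2G07768 stood at 94.9%, 91.7%, 90.4% and 97.3%, and AT2G07815 at 96.4%, 94.7%, 100% and 93.4%. AT2G07749, annotated as the RNA polymerase of a mitovirus, a virus of mitochondria, stood at 99.2%, 95.7%, 95.7% and 96.3%. These 5 were chosen after their values were seen, and the SNP and mock values overlapped in 4 of them, while in AT2G07699 both SNP values were the higher ones.

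Over genes, with the 3 contexts summed, edgeR called 31 of 3474 at an adjusted p under 0.05, or 0.892%, of which 30 were lower in SNP. Of the 47 insertion genes tested, 12 were called and all 12 were lower. The depth filter left out shallow copies of high level. AT2G07777 and AT2G07749 had 0 CG sites of 10 reads in every library and were not tested. AT2G07666, a pseudogene of high level, was tested. It stood at 81.9%, 80.4%, 82.6% and 78.2%, with a log2 odds ratio of −0.076 (edgeR unadjusted p = 0.817). At an unadjusted p under 0.05 it was 38 of 47, beside 11.9% of all genes. Leaving out any single library, mock 1, mock 2, SNP 1 or SNP 2, left 0 insertion genes called by edgeR, with between 26 and 36 at an unadjusted p under 0.05, and DESeq2 called 0, with 3. The median log2 odds ratio was −0.43 over the 47 genes and −0.038 over all genes tested.

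The called genes were mostly of unknown role. The pseudogene AT2G07811 (chr2:3336879-3337498) stood at 22.7%, 17.4%, 13.6% and 11.4%, a log2 odds ratio of −0.81 (SE 0.14, edgeR adjusted p = 0.0151). It shares its sites with AT2G07808, which lies within it. AT2G07674, an uncharacterized protein, had 37.8%, 27.7%, 24.5% and 14.1%, the widest spread between replicates of the 12, at −1.05 on the log2 odds scale. It was −0.57 without SNP 2, −0.71 without mock 1 and −1.56 without SNP 1. AT2G07732, a fragment of the plastid gene for the large subunit of RuBisCO, the enzyme that fixes carbon dioxide, fell by 0.75 in log2 odds, with −0.47 on leaving out SNP 1, and AT2G07688, a copy of the plastid gene for the photosystem II reaction centre protein A, fell by 0.54. The other genes called were AT2G05155, AT2G05165, AT2G07677, AT2G07798, AT2G05195, AT2G05205 and AT2G05215, of which AT2G05205 and AT2G05215 have the same coordinates and overlap AT2G05195. None of the 12 was annotated to a respiratory complex, and since several share sites they are fewer than 12 independent values.

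The listed sites also differed in how often they recurred. Of 6627 CG sites of the insertion listed in any library, 2618 (39.5%) were listed in all 4 and 1489 (22.5%) in a single library. In CHG the share listed in all 4 was 29.96% of 5857, and in CHH 6.21% of 4011. The tests of level between SNP and mock used recurrent sites, while window and gene levels given over all listed sites did not.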

How the data were processed

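EM-seq lists of called methylated cytosines were read for all 4 libraries, grouped by the sample labels. Each deposited line gives the level of a site as a fraction and its depth as a count of reads. The authors made them from 75-base paired reads of fragments near 250 bases with Bismark, its methylation extractor and FastQC on TAIR10, per the labels and the methods of the study, and versions are not given in the sources used here. Methylated reads were the level multiplied by the depth, which gave whole numbers. All libraries had a median nuclear depth between 8 and 10 reads, so single sites are imprecise, and counts cover counting error of reads that are not independent molecules. Replicate libraries were not identical.

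Cytosines, genes and sequences came from RefSeq TAIR10.1. Homology with the mitochondrial genome was found with BLAST 2.17.0 (blocks of at least 1000 columns, E-value 1e-20), and 75-base words were compared after conversion. Tests of level used sites covered by 10 or more reads in every library, unless another set is named. Levels at the junctions, of the windows along the insertion and by distance were taken over all listed sites. The windows and genes tested needed 10 sites of at least 10 reads in every library and a minimum level of 1%. These windows and genes were tested with edgeR 4.0.16 in R 4.3.3 over all nuclear windows or genes, with DESeq2 1.42.0 and Fisher's exact test as alternatives. Fisher's test pooled the reads of each group, so it took no account of the spread between libraries. Its calls were counted only where the SNP and mock levels did not overlap. Other values were tested with exact sign-flip or permutation tests over libraries. The simulated data held 200 changed windows (log2 odds of 2) per context. The window test recovered 86.5% of them in CG (4181 windows), 100% in CHG (1952) and 100% in CHH (1007). False calls made up 3.89% of the windows called there in CG, 5.66% in CHG and 2.44% in CHH. The windows called in the insertion had smaller log2 odds ratios, from −0.64 to −0.49, and recovery at that size was not tested. Tables and figures used Python 3.11.15, NumPy 2.4.6, pandas 2.3.3 and matplotlib 3.10.9.

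Windows named were the 5 deepest, the 5 shallowest, the first, the last and those called, besides the window with no listed site. Genes named were those annotated to a mitochondrial role with at least 10 CG sites of that depth and those called, and 5 more were named after their values were seen. The interval and the lists were chosen with earlier results of these data known.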

Additional observations from a re-analysis of the deposited data

Results flagged for a closer look

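The organelle lists lie outside the regions compared, and in both of them the depth of both SNP libraries was above that of both mock libraries. On the mitochondrial chromosome the mean over the SNP libraries of the median depth was 117.5 reads in CG, 119 in CHG and 117.5 in CHH. The mock medians were 91 and 89 reads in CG, 93 and 90 in CHG, and 93 and 92 in CHH. On the plastid chromosome the SNP mean was 464.25 reads in CG, 481.5 in CHG and 498.25 in CHH, from no more than 454 listed sites per library and context. The plastid mock medians were 242 and 242 reads in CG, 245 and 244 in CHG, and 245 and 248 in CHH. These depths are of listed sites, and they were not tested.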

How the results depend on the processing

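The following kept their direction under every alternative run: the lower share, level and methylated reads of the insertion in CG and CHG, its greater depth there, and its lower CG and CHG level in SNP. The CG level difference of SNP and mock ranged from −5.83 to −4.27 with 1 library left out. Small values turned. The ratio of methylated reads between SNP and mock was 0.0103 in CHG and 0.18 in CHH at sites listed in every library. The CHH depth ratio between SNP and mock was 0.03 at sites of at least 5 reads, 0.36 at sites listed in every library, 0.29 with the mean depth, and −0.11 to 0.063 with 1 library left out. The CHH ratio of insertion to flank depth was −0.022 with the mean. The CHH level difference was 0.244 within 75 bases of a readable difference, an alternative added after the data were seen. The flank difference ranged from −0.935 to 1.06 in CHG and from −0.853 to 0.911 in CHH with 1 library left out. The cause was not tested.

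Counts of insertion windows and genes called moved most. With 5 reads in every library, 11 CG windows, 12 CHG windows and 29 genes were called, and with no depth minimum 10, 15 and 30. Fisher's exact test of pooled reads, with groups that did not overlap, called 33, 23 and 37. DESeq2 called 0, 0 and 0, and windows of 1.0 kb gave 0 in CG and 0 in CHG. With 1 library left out the counts were 0 to 7 in CG, 0 to 8 in CHG and 0 to 0 for genes. With the replicate block, 0 CG windows, 1 CHG window and 23 genes were called. Replicate numbers were not treated as pairs in the main fit. Over the genome, deviations of same-numbered libraries correlated at 0.031 in CG, −0.012 in CHG, −0.041 in CHH and 0.0099 over genes. Within the insertion they correlated at −0.18 in CG, −0.56 in CHG, −0.235 in CHH and 0.044 over genes. Over the whole genome edgeR called 3 CG windows, 5 CHG windows, 5 CHH windows and 31 genes. With 5 reads these were 681, 62, 0 and 726, with no depth minimum 519, 125, 0 and 923, with the block 1, 1, 3 and 86, with DESeq2 0, 0, 2 and 0, and with Fisher's exact test 368, 75, 140 and 315. A median depth near 10 reads limits single sites.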
